A study of Mus musculus with 6 samples.

Results

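Zeb2 is 1 of 6 transcription factors best known from epithelial to mesenchymal transition (EMT), together with Zeb1, Snai1, Snai2, Twist1 and Twist2, and these 6 genes were taken by symbol from the 38293 genes of a bulk RNA-seq count table. Cardiac tissue came from 3 mice labelled WT and 3 mice labelled Zeb2 cKO. The labels give a C57BL/6J (backcrossed) strain for all of them. According to the methods, both genotypes carried floxed Zeb2 (Zeb2 fl/fl), and the Zeb2 cKO mice also carried a Cre recombinase under the Myh6 promoter, which is active in cardiomyocytes. All 6 were adult male mice whose left anterior descending coronary artery was tied off permanently, and tissue was taken 14 days after this myocardial infarction (MI). No uninjured heart and no mouse with Cre but without floxed Zeb2 was analysed here, so the deletion and the presence of Cre cannot be told apart. The labels place the tissue in the border region of the infarct, whereas the methods place it in the remote zone.

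EMT factors bind E-box sequences in DNA and mostly repress transcription. ZEB1 and ZEB2 are large proteins with zinc fingers at both ends and a homeodomain between them, and they recruit CtBP co-repressors to silence epithelial genes such as Cdh1, which encodes E-cadherin. SNAI1 and SNAI2 are smaller zinc finger repressors, and SNAI1 protein is kept short-lived by phosphorylation and ubiquitin ligases. TWIST1 and TWIST2 are basic helix-loop-helix proteins that pair with E proteins such as TCF3 and TCF12. In the adult heart, these factors are best known from fibroblasts, endothelial cells, valve cells and, for Zeb2, macrophages, while the Cre used here acts on cardiomyocytes alone.

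In mouse build GRCm38, Zeb2 (ENSMUSG00000026872) occupies positions 44983632 to 45117395 of chromosome 2 on the minus strand, and Snai1 (ENSMUSG00000042821) lies on the plus strand of chromosome 2 from 167538195 to 167542814. Snai2 (ENSMUSG00000022676) is on the plus strand of chromosome 16 from 14705852 to 14709385. Twist1 (ENSMUSG00000035799) is on the plus strand of chromosome 12 from 33957671 to 33959829, and Twist2 (ENSMUSG00000007805) is on the plus strand of chromosome 1 from 91801461 to 91848028. Zeb1 has the identifier ENSMUSG00000024238. Merged over all annotated transcripts, exons covered 19942 bases in Zeb2, 10266 in Zeb1, 3174 in Twist2, 2021 in Snai2, 1628 in Twist1 and 1621 in Snai1. An antisense gene, Zeb2os, overlaps Zeb2 on the opposite strand from 45110707 to 45114087.

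Reads of 75 bases can be assigned to a gene only where the sequence is its own. Of all 75-base stretches in the transcripts of a member, 0% in Snai1, Snai2 and Twist1 also occurred, on either strand, in transcripts of another gene. The share was 1.16% in Zeb1, all with the antisense transcript Gm10125, and 1.49% in Zeb2, all with Zeb2os. In Twist2 it was 45.3%, all with the antisense transcript Gm29100, which lies on the opposite strand of the same locus. No paralog pair, Zeb1 with Zeb2, Snai1 with Snai2 or Twist1 with Twist2, shared such a stretch. The libraries keep the strand, but the strand setting of the counting is not given in the sources used here. Reads of Zeb2 and Zeb2os, or of Zeb1 and Gm10125, may therefore not be separated where they overlap. Gm29100 was not among the counted genes, so it took no reads from Twist2, but reads of its RNA may have been counted for Twist2.

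The 4 promoters that RefSeq gave for the members are shown because Zeb2, Snai1, Twist1 and Twist2 were all highest in 1 and the same library, and because the factors are themselves repressors at E-boxes. Each sequence is the 250 bases before the most upstream listed start of the gene in build GRCm38.p6, read 5′ to 3′ on the strand of the gene. Capitals mark AGGTG or its reverse complement CACCT, the core bound by ZEB and SNAIL zinc fingers. The windows are chr2:45117443-45117692 for Zeb2 (minus strand), chr2:167537945-167538194 for Snai1, chr12:33957421-33957670 for Twist1 and chr1:91801211-91801460 for Twist2 (plus strand).
Zeb2: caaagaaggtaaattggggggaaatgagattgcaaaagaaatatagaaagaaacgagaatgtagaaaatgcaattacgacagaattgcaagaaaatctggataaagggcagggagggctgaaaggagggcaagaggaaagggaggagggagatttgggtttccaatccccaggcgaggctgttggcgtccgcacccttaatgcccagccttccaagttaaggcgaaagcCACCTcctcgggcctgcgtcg
Snai1: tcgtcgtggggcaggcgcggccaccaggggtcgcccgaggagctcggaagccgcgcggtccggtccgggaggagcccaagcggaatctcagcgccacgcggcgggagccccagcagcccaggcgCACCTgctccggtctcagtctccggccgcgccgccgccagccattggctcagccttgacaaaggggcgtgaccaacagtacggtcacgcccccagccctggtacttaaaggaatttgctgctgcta
Twist1: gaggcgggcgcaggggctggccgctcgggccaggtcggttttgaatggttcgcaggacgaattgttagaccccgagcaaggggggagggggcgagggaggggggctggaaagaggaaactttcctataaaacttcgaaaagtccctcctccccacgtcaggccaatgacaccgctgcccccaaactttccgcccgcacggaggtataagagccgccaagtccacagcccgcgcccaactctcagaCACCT
Twist2: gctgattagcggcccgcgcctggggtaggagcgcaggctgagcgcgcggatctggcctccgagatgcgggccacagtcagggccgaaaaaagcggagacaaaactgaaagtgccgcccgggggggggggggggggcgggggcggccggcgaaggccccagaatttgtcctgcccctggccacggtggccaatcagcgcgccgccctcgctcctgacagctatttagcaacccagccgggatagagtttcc

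Zeb2, Snai1 and Twist1 each held 1 such core and Twist2 held 0, while 45.8% of all 27025 genes with a listed promoter held at least 1 in the same window, both strands searched. The core in Snai1 was part of the full E-box CAGGTG (reverse complement CACCTG), which 17.1% of all genes held. Any E-box, CANNTG, was found in 66.1% of all genes and, among the 4 members, in Snai1 alone, at the same place as the full E-box. Among the 15 genes with a listed promoter from a list of 23 epithelial genes, 8 (53.3%) held CAGGTG, and among 7 with a listed promoter from a list of 13 mesenchymal genes 0 did. These matches describe the letters in the window and are not measured binding.

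Zeb1 and Zeb2 transcripts are the classic targets of the miR-200 family, small RNAs of epithelial cells that pair through their seed, bases 2 to 8, with complementary sites after the coding sequence. The family has 5 members with 2 seeds, and 1 sequence of each seed is shown from RefSeq, 5′ to 3′, with the seed in capitals. The seed of miR-200b-3p is shared by miR-200c-3p and miR-429-3p, and that of miR-141-3p by miR-200a-3p.
miR-200b-3p: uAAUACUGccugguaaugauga
miR-141-3p: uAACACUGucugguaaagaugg

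In the longest annotated 3′ untranslated region of each gene, Zeb1 and Zeb2 each held 9 perfect seed matches, 5 to CAGTATT and 4 to CAGTGTT, in 2404 and 4944 bases. Snai2 held 2 matches, Snai1 held 1, and Twist1 and Twist2 held 0. At least 1 match was present in 26.0% of 21849 genes with such a region, and 9 or more in 0.0137% of them. All 5 hairpin genes of the family, Mir200a, Mir200b, Mir200c, Mir141 and Mir429, were listed at 0 counts in all 6 libraries. The libraries were made from total RNA for long transcripts, so mature miRNAs were not measured.

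Total counts ranged from 37288174 to 51136331 per library, of which 60.5% to 67.0% fell on mitochondrially encoded genes. Levels are given as CPM, read counts scaled by TMM to a common library size, and genotypes were tested with the quasi-likelihood method of edgeR, adjusting p-values over all 14746 genes with enough counts for its filter. Single values were also given an exact two-sided permutation test, in which 3 mice against 3 cannot reach a p below 0.1. WT replicate 2 stood apart from the other 5 libraries: its summed macrophage markers were 2.75 times and its fibroblast markers 5.17 times the median of the others, and its cardiomyocyte markers 0.566 times. The main results and the medians of the gene lists are therefore given with and without that library. No source names a technical batch.

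Zeb2, the targeted gene, was not called different between the genotypes. It was at 61.3, 116 and 71.9 CPM in WT replicates 1, 2 and 3 (83.1 ± 29.0, mean ± SD, n = 3). Replicates 1, 2 and 3 of Zeb2 cKO were at 59.6, 72.6 and 66.5 CPM (66.2 ± 6.51, SD, n = 3). WT replicate 2 was the highest of all, 1.75 times the median of the other 5, while WT replicates 1 and 3 lay inside the range of the Zeb2 cKO libraries. The log2 fold change of Zeb2 cKO against WT was -0.33 (standard error 0.25, 95% confidence interval -0.92 to 0.26, adjusted p = 0.957, edgeR). This interval corresponds to a Zeb2 level in Zeb2 cKO tissue of between 0.530 and 1.20 times that in WT. Without WT replicate 2 the log2 fold change was -0.0058 (interval -0.29 to 0.28). The counts come from every cell of the tissue and from the whole gene, so they do not separate intact from recombined transcripts, and in bulk tissue fewer cells of a type and less RNA per cell cannot be told apart.

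Zeb1, the close paralog of Zeb2, was the steadiest of the 6 factors. It was at 49.6, 56.5 and 54.4 CPM in the WT libraries (53.5 ± 3.51, SD, n = 3), against 52.5, 48.2 and 58.4 CPM in Zeb2 cKO (53.0 ± 5.11, SD, n = 3). The highest library was only 1.21 times the lowest, and WT replicate 2 was 1.08 times the median of the others. Its log2 fold change was -0.01 (95% confidence interval -0.31 to 0.28, adjusted p = 0.993, edgeR). Without WT replicate 2 it was 0.03, on the other side of 0 and within that interval. Zeb1 and Zeb2 rested on 1870 to 3137 and 2309 to 5093 counts, many enough for a small counting error. The coefficient of variation over the 5 libraries other than WT replicate 2 was 7.64% for Zeb1 and 8.95% for Zeb2, where counting alone gives 2.06% and 1.84%.

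Zeb2os, the antisense RNA of the Zeb2 locus, had 33, 86 and 33 counts in the WT and 51, 42 and 50 counts in the Zeb2 cKO libraries. WT replicate 2 was again the highest, at 2.11 times the median of the others. Its log2 fold change was -0.35 (adjusted p = 0.957, edgeR), and without WT replicate 2 it was 0.17. WT replicates 1 and 3 were then at 0.876 and 0.859 CPM, below the 0.931 to 1.02 CPM of the Zeb2 cKO libraries. For Zeb1, the overlapping antisense transcript Gm10125 had 26 to 63 counts.

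**Figure D1:**
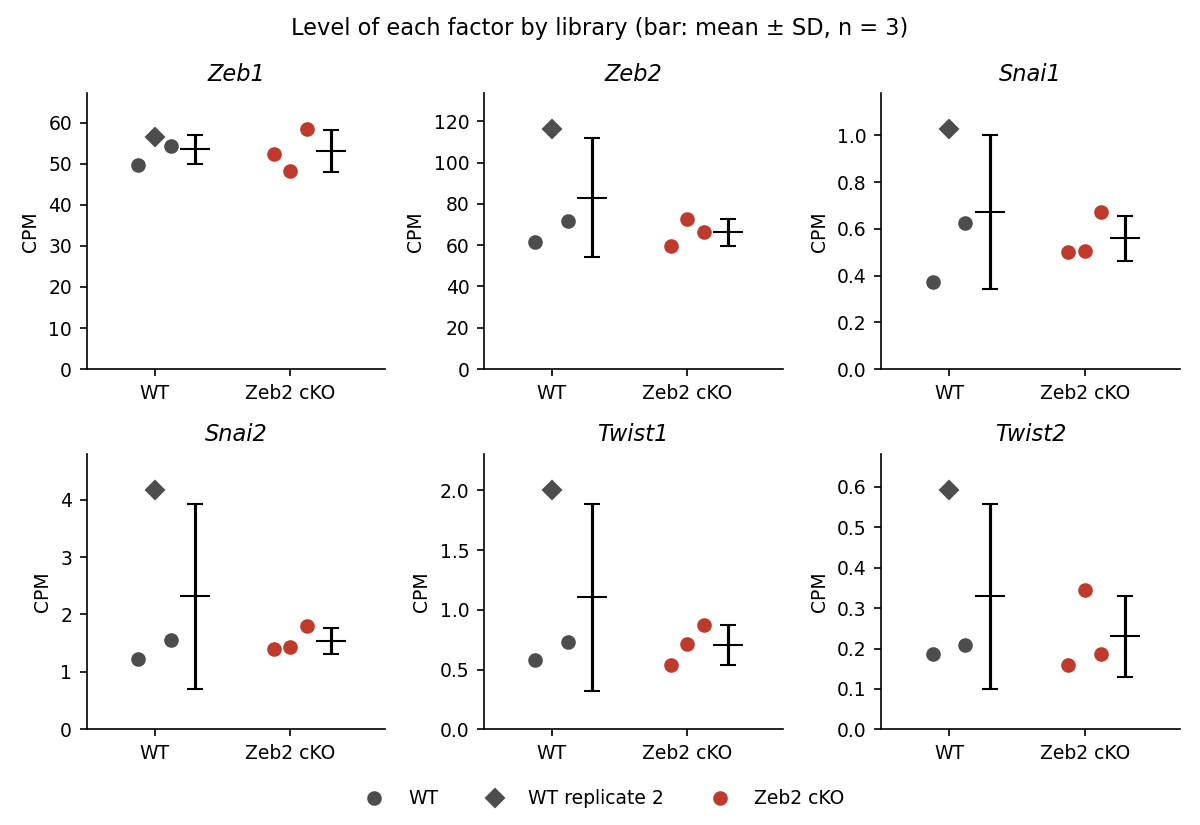
Level in CPM (y axes, linear from 0) of the 6 factors in the WT (grey) and Zeb2 cKO (red) libraries, with mean and SD of each group of 3 mice as a bar, and WT replicate 2 as a diamond. Outside Zeb1, the diamond is the highest point of every panel, from 1.75 (Zeb2) to 3.18 times (Twist2) the median of the other 5 libraries.

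Both Snail genes rested on few counts, and their WT means were drawn up by 1 library. Snai1 was at 0.372, 1.03 and 0.625 CPM in the WT libraries (0.674 ± 0.330, SD, n = 3), against 0.500, 0.507 and 0.670 CPM in Zeb2 cKO (0.559 ± 0.0963, SD, n = 3). WT replicate 1 was the lowest and WT replicate 2 the highest, so the Zeb2 cKO values lay inside the WT range. The log2 fold change of Snai1 was -0.27 (95% confidence interval -1.21 to 0.66, adjusted p = 0.957, edgeR) and, without WT replicate 2, 0.17. Snai2 was at 1.22, 4.17 and 1.56 CPM in the WT libraries (2.32 ± 1.61, SD, n = 3), against 1.40, 1.43 and 1.81 CPM in Zeb2 cKO (1.54 ± 0.226, SD, n = 3). WT replicate 2 was 2.92 times the median of the other 5, which spanned 1.22 to 1.81 CPM across both genotypes. The log2 fold change of Snai2 was -0.59 (interval -1.69 to 0.51, adjusted p = 0.957, edgeR) and, without WT replicate 2, 0.15.

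Snai1 rested on 14 to 45 counts per library and Snai2 on 46 to 183. For WT replicate 1, the 14 counts of Snai1 allow 0.203 to 0.624 CPM (exact 95% Poisson interval, counting error only). Among the 5 libraries other than WT replicate 2, the coefficient of variation of Snai1 was 21.9%, where counting alone gives 20.3%.

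Twist1 and Twist2 showed the same order of libraries at their extremes. Twist1 was at 0.584, 2.01 and 0.729 CPM in the WT libraries (1.11 ± 0.782, SD, n = 3), against 0.540, 0.714 and 0.875 CPM in Zeb2 cKO (0.710 ± 0.168, SD, n = 3). Its highest value was in WT replicate 2, 2.81 times the median of the others, and its lowest in Zeb2 cKO replicate 1. The log2 fold change was -0.65 (95% confidence interval -1.83 to 0.54, adjusted p = 0.957, edgeR) and, without WT replicate 2, 0.12. Twist2, with 7, 26 and 8 counts in the WT and 8, 15 and 10 counts in the Zeb2 cKO libraries, did not pass the filter on low counts. At 0.186, 0.592 and 0.208 CPM in WT and 0.160, 0.346 and 0.186 CPM in Zeb2 cKO, it was also highest in WT replicate 2 and lowest in Zeb2 cKO replicate 1. In a fit without the filter its log2 fold change was -0.52 (interval -1.76 to 0.72, adjusted p = 0.858, edgeR).

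Of the 6 members, 5 passed the filter and 0 were called at an adjusted p of 0.05, beside 0% of all genes tested (edgeR). DESeq2 called 0 of the 5 members and 2 genes in the whole table. At an unadjusted p under 0.05 edgeR had 0 of the 5 members, beside 0.861% of all genes lower and 1.04% higher in Zeb2 cKO. The groups did not separate in any of the 6 members, where 6.36% of the tested genes had groups that do not overlap. All 5 tested members had a log2 fold change below 0, as had 51.4% of all tested genes, and without WT replicate 2 only Zeb2 still had. The intervals leave room for a change by more than 1 on the log2 scale in Snai1, Snai2 and Twist1, and for no change.

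**Figure D2:**
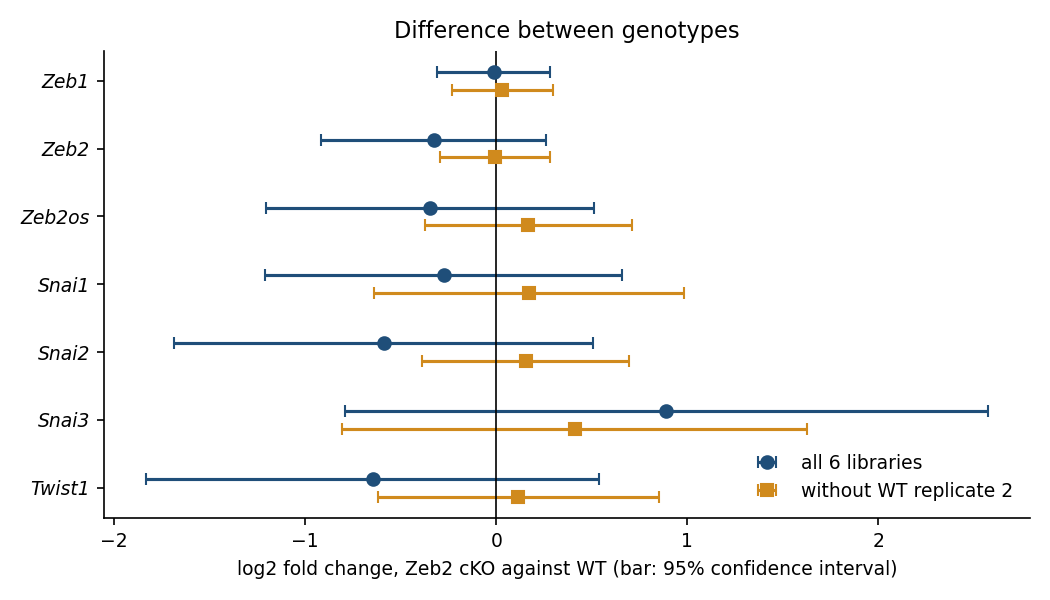
Log2 fold change of Zeb2 cKO against WT (x axis) with 95% confidence interval from edgeR for the 5 tested factors, Zeb2os and Snai3, with all 6 libraries (circles) and without WT replicate 2 (squares). Every interval includes 0; Snai1, Snai2, Twist1 and Zeb2os lie at -0.65 to -0.27 with all libraries and at 0.12 to 0.17 without that one.

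To compare levels between genes, CPM was divided by the length of the merged exons in kilobases. Zeb1 came first with a median of 5.21 CPM per kilobase (lowest library 4.70, highest 5.69), followed by Zeb2 with 3.47 (2.99 to 5.82). Next was Snai2 with 0.740 (0.604 to 2.06), ahead of Twist1 with 0.443 (0.331 to 1.23) and Snai1 with 0.349 (0.229 to 0.633). Twist2 was last with 0.0621 (0.0504 to 0.187). Zeb1 and Zeb2 together made up most of the summed level of the 6 factors, at 47.5% and 34.3% of the summed means. Snai2 contributed 8.76%, Twist1 5.11%, Snai1 3.48% and Twist2 0.807%.

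The order was tested within libraries, as the log2 ratio of each of the 15 pairs. In 14 pairs the ratio had the same sign in 6 of 6 libraries (exact paired permutation test, two-sided p = 0.0312, adjusted p = 0.0335), which is the smallest p that 6 libraries allow. Only Zeb1 and Zeb2 were not separated: Zeb1 per kilobase was 1.42 times Zeb2 on average and the higher in 5 of 6 libraries (exact paired permutation test, two-sided p = 0.0625), whereas in WT replicate 2 it was 0.946 times Zeb2. The closest neighbours after these were Twist1 and Snai1, with a ratio of 1.38 (1.08 to 1.95 across libraries), and Snai2 and Twist1, with 1.73 (1.61 to 2.09). Zeb2 was 4.21 times Snai2 (2.82 to 5.15), and Snai1 was 4.61 times Twist2 (2.87 to 7.05). Divided by the longest transcript instead of the merged exons, the medians of Zeb1 and Zeb2 were 9.21 and 7.58 CPM per kilobase, in the same order. The size of some ratios depended on this choice. The mean log2 ratio of Zeb2 to Snai2 was 3.20 with the longest transcript and 2.07 with merged exons. For Snai1 to Twist2 it was 1.88 and 2.21, while Snai2 to Twist1 and Twist1 to Snai1 did not change.

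**Figure D3:**
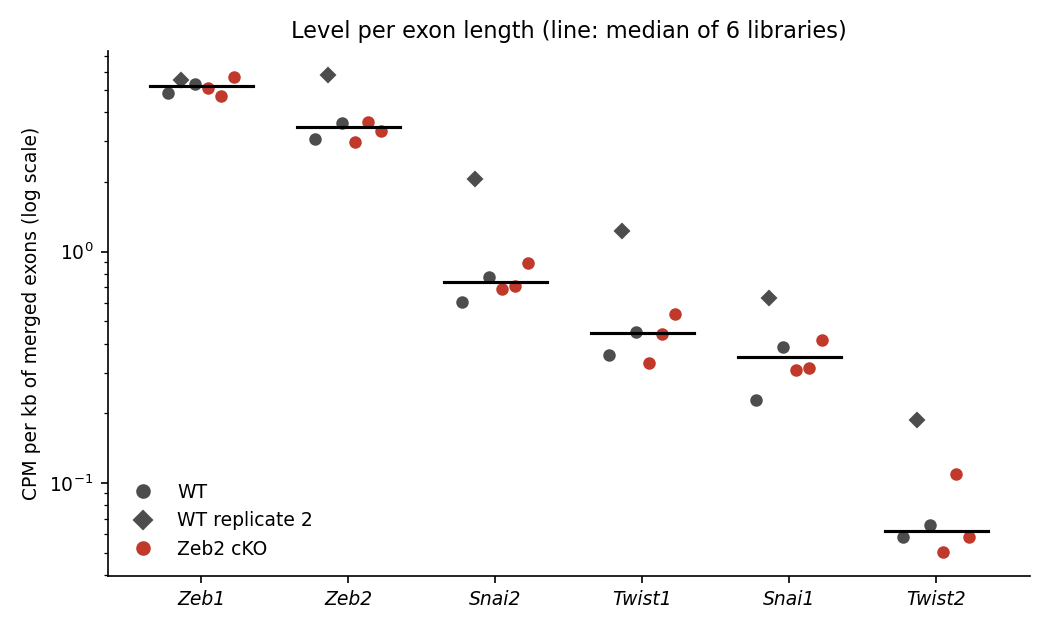
Level of the 6 factors in CPM per kilobase of merged exons (y axis, log scale) in each of the 6 libraries, ordered by their median (line). Zeb1 and Zeb2, with medians of 5.21 and 3.47, lie above the other 4 factors in every library, and WT replicate 2 (diamond) is the highest library for all but Zeb1.

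The groups overlapped in the balance within all 3 paralog pairs. The exact test cannot decide on a difference at 0.05, because 3 mice against 3 cannot reach a p below 0.1. The count ratio of Zeb1 to Zeb2 was 0.810, 0.487 and 0.757 in the WT and 0.881, 0.664 and 0.878 in the Zeb2 cKO libraries. The lowest value belonged to WT replicate 2, and the remaining WT values lay between those of Zeb2 cKO. The difference of Zeb2 cKO minus WT was 0.26 on the log2 scale (exact permutation test, two-sided p = 0.5, adjusted p = 0.75 over 3 pairs), and without WT replicate 2 it was 0.03. For Snai2 to Snai1 the ratio spanned 2.50 to 4.07 and the difference was -0.22 (exact permutation test, two-sided p = 0.4, adjusted p = 0.75), with -0.05 without WT replicate 2 and -0.40 without WT replicate 3. For Twist2 to Twist1 it spanned 0.213 to 0.484, the difference was 0.06 (exact permutation test, two-sided p = 0.8, adjusted p = 0.8), and without Zeb2 cKO replicate 2 it was -0.25.

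Which factors followed Zeb2 was read from the correlation of log2 CPM over the 6 libraries, with p-values adjusted over the 5 other members. Zeb1 did not pass, with Pearson's r = 0.38 and Spearman's rho = 0.14 (exact permutation, adjusted p = 0.519 and 0.803). Twist2 had r = 0.94 and rho = 1 (exact permutation, adjusted p = 0.0139 for both), and its 6 libraries stood in the same order as those of Zeb2. Twist1 had r = 0.96 and rho = 0.77 (exact permutation, adjusted p = 0.0764 and 0.170). Snai2 had r = 0.94 and rho = 0.71 (exact permutation, adjusted p = 0.108 and 0.170), and Snai1 had r = 0.86 and rho = 0.71 (exact permutation, adjusted p = 0.102 and 0.170).

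These relations rested largely on WT replicate 2. Without it and Zeb2 cKO replicate 1, the libraries farthest from the median of Zeb2, r over the other 4 libraries was -0.01 for Zeb1, 0.60 for Snai1, 0.42 for Snai2, 0.45 for Twist1 and 0.68 for Twist2. Without WT replicate 2 alone, Twist2 kept a rho of 1, on 7 to 15 counts per library and the same near tie, with r = 0.78. Twist1 then had r = 0.69. Over the same 5 libraries Snai1 had r = 0.53, Snai2 r = 0.44 and Zeb1 r = -0.01. In these 5 libraries Zeb2 itself spanned only 59.6 to 72.6 CPM. Zeb2 was 1.75 times the others in WT replicate 2, and 18.4% of all tested genes were at least 1.5 times the median of the other 5 libraries in that mouse. Of all tested genes, 35.2% were highest in that library. The share of all genes that follow Zeb2 as closely was not tested, so an r of this size is not shown to be special to these factors.

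**Figure D4:**
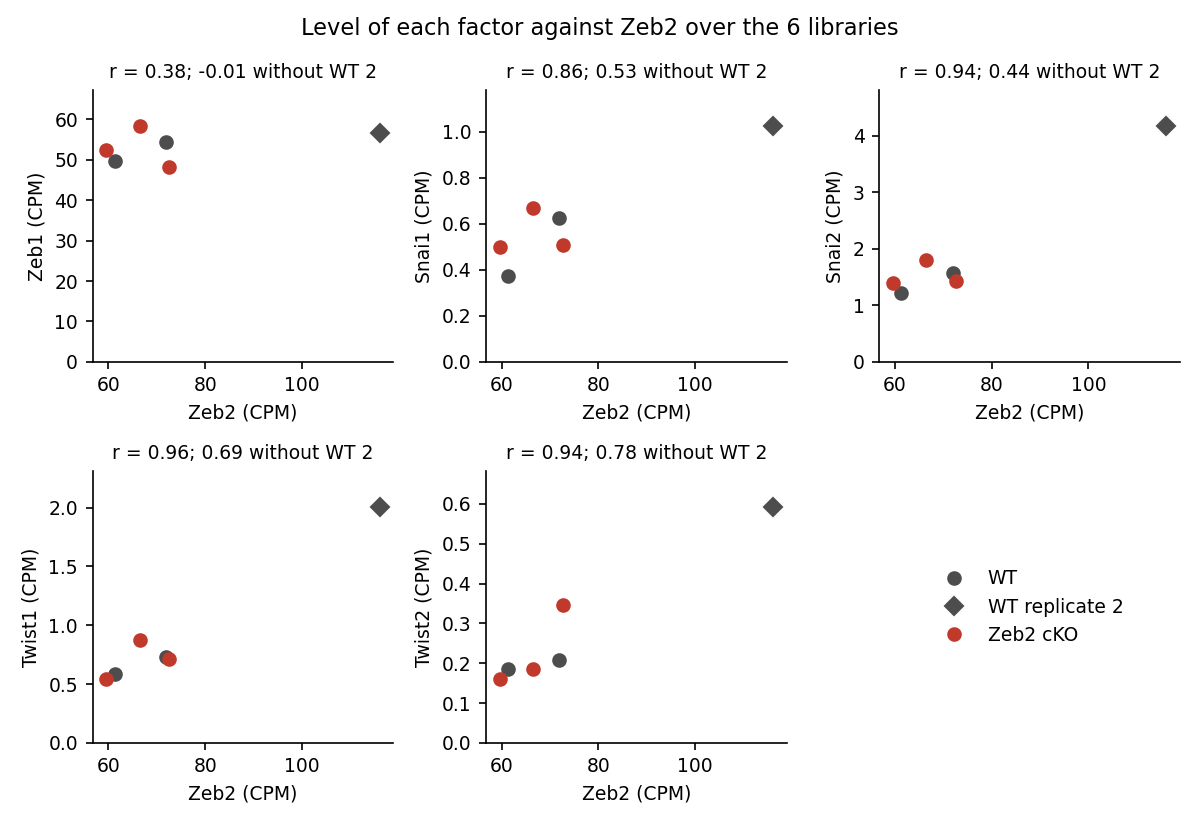
Level of each other factor (y axes, CPM) against Zeb2 (x axes, CPM) in the 6 libraries, with Pearson's r of log2 CPM over 6 libraries and without WT replicate 2 (diamond) above each panel. The diamond lies far to the right at 116 CPM of Zeb2, and the 5 other libraries crowd between 59.6 and 72.6 CPM.

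The markers of other cell types moved with the same library. The 12 macrophage markers, with Mrc1, Csf1r and C1qa the most counted, summed to 161 to 557 CPM in the WT and 194 to 210 CPM in the Zeb2 cKO libraries, and all 12 were highest in WT replicate 2. The 11 fibroblast markers, led by Col3a1, Dcn and Col1a2, summed to 1587 to 9261 CPM in WT and 1716 to 2052 CPM in Zeb2 cKO, and all 11 were highest in WT replicate 2. The 10 cardiomyocyte markers, led by Ttn, Myh6 and Actc1, summed to 34457 to 66317 CPM in WT and 54601 to 66272 CPM in Zeb2 cKO, and 8 of 10 were lowest in WT replicate 2. The 8 endothelial markers summed to 402 to 580 CPM in WT and 502 to 600 CPM in Zeb2 cKO.

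The remaining marker lists were low or alike in their summed levels. The 7 mural cell markers summed to 519 to 698 CPM in WT and 618 to 736 CPM in Zeb2 cKO. Schwann cell markers summed to 3.12 to 4.22 and 3.05 to 7.14 CPM, lymphocyte markers to 1.04 to 3.51 and 0.899 to 1.60 CPM, and the 5 mesothelial markers in the table to 4.48 to 9.02 and 6.36 to 8.69 CPM. The median log2 fold change of the tested genes was 0.06 for mural, 0.50 for Schwann, -0.42 for lymphocyte and 0.11 for mesothelial markers. Without WT replicate 2 these medians were 0.06, 0.52, -0.05 and 1.06. The Schwann cell list had 0 of 4 tested genes below 0 in both fits. No gene of the 8 marker lists had an adjusted p under 0.05. The share of these cells in the levels of Zeb2, Snai2 and Twist1 was not tested.

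**Figure D5:**
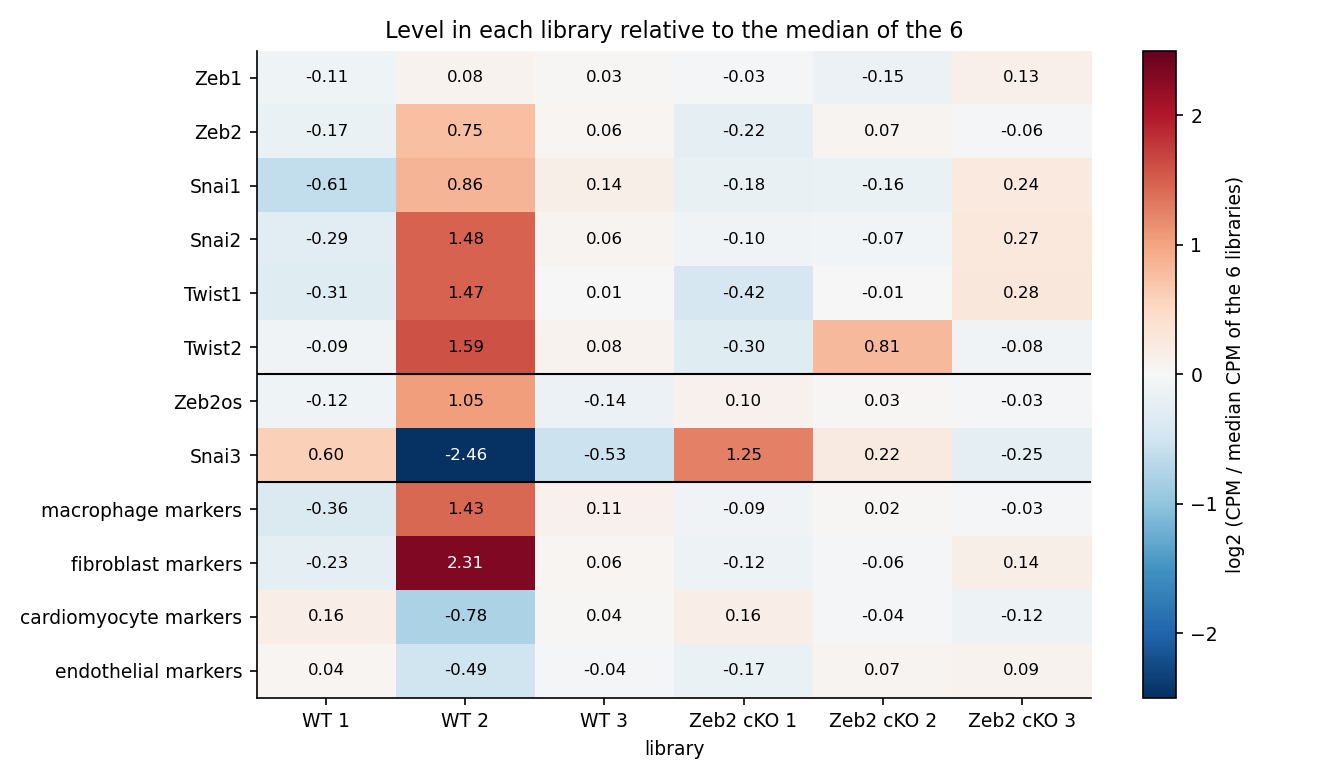
Log2 of the level in each library over the median of the 6 libraries (colour and printed value) for the 6 factors, Zeb2os and Snai3 and the summed CPM of 4 marker lists. The column of WT replicate 2 holds the highest value of 5 factors (0.75 to 1.59), 1.43 for macrophage and 2.31 for fibroblast markers, and -0.78 for cardiomyocyte markers, while Zeb1 is at 0.08.

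Relative to the macrophage, fibroblast and endothelial markers, the groups overlapped in Zeb2. Here too the exact test cannot decide on a difference at 0.05, because its p cannot go below 0.1. The log2 level of Zeb2 minus the mean log2 level of the macrophage markers was 2.83, 1.72 and 2.57 in the WT and 2.59, 2.67 and 2.62 in the Zeb2 cKO libraries. WT replicate 2, highest in Zeb2 itself, was lowest here. The difference of Zeb2 cKO minus WT was 0.25 (exact permutation test, two-sided p = 0.7, adjusted p = 0.8 over 3 lists), and without WT replicate 2 it was -0.07. Relative to fibroblast markers the difference was 0.29 (exact permutation test, two-sided p = 0.8, adjusted p = 0.8), and without WT replicate 2 it was -0.14. Relative to endothelial markers, where WT replicate 2 was the highest library, the difference was -0.40 (exact permutation test, two-sided p = 0.5, adjusted p = 0.8) and -0.02 without it.

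The genes whose log2 CPM across the 6 libraries was most like that of each member were taken among the tested genes with a mean of at least 1 CPM. For Zeb2 these were Wdr19 (r = 0.997), which encodes a part of the transport machinery of cilia, Btk (0.996), a kinase of B cells and myeloid cells, Psmb8 (0.995), a subunit of the immunoproteasome, Snx1 (0.995), a sorting nexin, and Nckap1l (0.994), an actin regulator of blood cells. Btk was at 0.796, 3.26 and 1.12 CPM in WT and 0.799, 1.18 and 1.06 CPM in Zeb2 cKO, so WT replicate 2 was highest as for Zeb2. Over the 5 libraries without WT replicate 2, r with Zeb2 was 0.957 to 0.977 for these 5 genes. The genes most like Zeb1 were Star (r = 0.995) and Mllt11 (0.984), both highest in Zeb2 cKO replicate 3 as Zeb1 was. Spon2 and Cndp2 (both r = 0.995) were most like Snai1, Sh3d19 and Ctcf (1.000 and 0.999) most like Snai2, and Tro and Tubb5 (both 0.998) most like Twist1. These r were the highest among all genes compared with a member and carry no test.

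A list of 13 genes joined relatives of the Snail and Twist families with factors of other families, such as Prrx1. Of these genes 9 were tested and 0 passed an adjusted p of 0.05 or an unadjusted p of 0.05 (edgeR). Their median log2 fold change was -0.28 with 6 below 0, beside -0.0069 for all tested genes, and it was 0.05 without WT replicate 2. Prrx1, a homeobox factor of mesenchymal cells, was at 28.5, 43.0 and 33.8 CPM in WT and 29.9, 30.4 and 31.5 CPM in Zeb2 cKO. Hand2, a helix-loop-helix factor of heart development, was at 13.3, 5.45 and 9.53 CPM in WT and 9.81, 9.47 and 9.31 CPM in Zeb2 cKO, with its lowest value in WT replicate 2. Tcf21, a helix-loop-helix factor of cardiac fibroblasts, was 3.63 times the others in that library, at 6.86 CPM. The 3 genes Hand1, Scrt1 and Scrt2, named because they were at 0 counts throughout, could not be tested.

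Snai3, the remaining Snail paralog and chosen for mention after its values were seen, was lowest where most members were highest. It had 43, 6 and 20 counts in the WT and 90, 38 and 34 counts in the Zeb2 cKO libraries. WT replicate 2 was the lowest library, at 0.156 times the median of the others, where the Snail genes Snai1 and Snai2 were at 2.02 and 2.92 times. The log2 fold change was 0.89 (95% confidence interval -0.79 to 2.57, adjusted p = 0.957, edgeR) and 0.41 without WT replicate 2. Without WT replicate 1 the groups did not overlap and it was 1.76 (adjusted p = 0.596).

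The partners of TWIST are E proteins, and ID proteins keep E proteins off DNA. All 7 were tested, 0 were called, and all 7 had a log2 fold change below 0 with a median of -0.16 (-0.03 without WT replicate 2). Tcf4, an E protein, was at 112 to 138 CPM in all libraries. Tcf12 was at 29.2, 37.9 and 30.4 CPM in WT and 26.4, 28.4 and 32.5 CPM in Zeb2 cKO, and Tcf3 at 9.61, 8.27 and 9.19 CPM in WT and 7.25, 8.85 and 9.32 CPM in Zeb2 cKO. Both groups overlapped in each of these E proteins. Id3 was at 13.2, 28.5 and 16.4 CPM in WT and 13.6, 13.1 and 14.5 CPM in Zeb2 cKO. Id2, of the same inhibitor family and named after its values were seen, was at 3.48, 33.0 and 5.05 CPM in WT and 5.66, 6.27 and 5.27 CPM in Zeb2 cKO, so WT replicate 2 was 6.26 times the median of the others.

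ZEB and SNAIL proteins repress through shared co-repressor complexes. All 12 listed subunits were tested, 0 were called, and their median log2 fold change was 0.02 with 5 below 0, which turned to -0.03 without WT replicate 2. Ctbp1, which encodes the main partner of ZEB proteins, was at 47.0, 34.0 and 40.9 CPM in WT and 44.8, 46.5 and 41.9 CPM in Zeb2 cKO (log2 fold change 0.13, adjusted p = 0.957, edgeR; 0.02 without WT replicate 2). Its lowest value was in WT replicate 2, where Zeb2 was highest. Ctbp2 was at 12.1, 12.5 and 12.6 CPM in WT and 10.4, 12.2 and 10.6 CPM in Zeb2 cKO (log2 fold change -0.17, adjusted p = 0.957, edgeR). Chd4 and Smarca4, chromatin remodelers, had log2 fold changes of 0.03 and 0.07, and of -0.04 and -0.12 without WT replicate 2.

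Of 8 genes for turnover of SNAIL proteins, all tested, 0 were called, and the median log2 fold change was -0.07 with 6 below 0, and -0.03 without WT replicate 2. Gsk3b, a kinase that marks SNAI1 for degradation, was at 46.7, 49.2 and 47.4 CPM in WT and 37.1, 38.1 and 46.5 CPM in Zeb2 cKO. The groups did not overlap, by a margin of less than 1 CPM, and the log2 fold change was -0.24 (adjusted p = 0.957, edgeR; -0.21 without WT replicate 2). Fbxl14, a ubiquitin ligase subunit for SNAI1, also had groups that did not overlap, at 7.94, 5.74 and 5.76 CPM in WT and 5.40, 5.69 and 5.45 CPM in Zeb2 cKO, and was named after its values were seen. These 2 of 8 stand beside the 6.36% of all tested genes whose groups do not overlap. Csnk1a1 and Fbxl5 had log2 fold changes of -0.04 and 0.03.

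ZEB2 was first described as a SMAD-interacting protein, and 12 genes of TGF-β and BMP signaling were followed. All 12 were tested and 0 were called, with a median log2 fold change of -0.28 and 10 below 0, which was -0.06 without WT replicate 2. Tgfbr2, the type II receptor, was at 49.4, 105 and 55.1 CPM in WT and 51.5, 53.2 and 57.5 CPM in Zeb2 cKO. Smad5 and Smad4 spanned 43.6 to 48.6 CPM and 30.0 to 36.7 CPM over the 6 libraries, with log2 fold changes of 0.03 and -0.11. In Smad2 and Smad7, picked because they were the 2 of 12 whose groups did not overlap (6.36% of all tested genes), the log2 fold changes were -0.11 and -0.26 (adjusted p = 0.957 for both, edgeR). Smad7, an inhibitor of TGF-β signaling, was at 10.5, 10.5 and 10.9 CPM in WT and 8.55, 8.37 and 9.86 CPM in Zeb2 cKO, and WT replicate 2 was not apart from the other WT libraries.

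Epithelial genes, the textbook targets of these repressors, were mostly near the limit of detection. Of 23 listed genes 10 were tested, and 0 passed an adjusted p of 0.05 (edgeR). Cdh1, E-cadherin, had 0, 10 and 1 counts in the WT and 3, 1 and 2 counts in the Zeb2 cKO libraries, too few to show a difference. Dsp and Jup, desmosome genes that cardiomyocytes use as well, were at 431 to 1014 CPM and 49.2 to 115 CPM, both lowest in WT replicate 2, and Patj, a polarity gene, had a log2 fold change of 0.33 (0.12 without WT replicate 2). The median log2 fold change of the 10 genes was 0.24 with 1 below 0, and without WT replicate 2 it was 0.27 with 4 below 0, Dsp and Jup among them. Esrp2, a splicing regulator of epithelial cells singled out after its values were seen, was the only one of the 10 with an unadjusted p under 0.05, beside 1.04% of all tested genes in that direction (log2 fold change 1.49, adjusted p = 0.957, edgeR). It was at 0.319, 0.160 and 0.182 CPM in WT and 0.659, 0.369 and 0.819 CPM in Zeb2 cKO, and its groups did not overlap. Those of Grhl2, an epithelial transcription factor also picked after its values were seen, did not overlap either, at 0.433 to 1.07 and 1.28 to 1.84 CPM. These 2 of 10 stand beside 6.36% of all tested genes.

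Mesenchymal genes were mostly highest in WT replicate 2, as 10 of the 13 listed were. Of these 13 genes, all tested, 0 were called, 11 had a log2 fold change below 0 with a median of -0.82, and without WT replicate 2 the median was 0.02. Vim, vimentin, was at 136, 316 and 172 CPM in WT and 135, 142 and 185 CPM in Zeb2 cKO. Sparc, Postn and Fn1, genes of the extracellular matrix, were 4.74, 4.35 and 6.53 times the median of the others in WT replicate 2. Cdh2, N-cadherin, which cardiomyocytes carry at their junctions, was at 166, 98.2 and 159 CPM in WT and 152, 146 and 143 CPM in Zeb2 cKO, lowest where Vim was highest.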

How the data were processed

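The 6 factors and all gene lists were chosen with earlier results of these data known. Per the methods, ribosomal RNA was removed from total RNA and strand-specific libraries were sequenced as single-end reads of 75 bases; the authors then aligned them with STAR and quantified Gencode M4 genes; the build in the submitters' processing notes is GRCm38 (mm10), and they list DESeq 1.2. The authors deposited raw counts per gene for each library, without normalization. The STAR version, strand setting and treatment of multi-mapping reads are not given in the sources used here.

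Symbols, coordinates, exon lengths and transcripts came from Gencode M21 on the same build by gene identifier (36345 of 38293 genes had a symbol), and promoters and miRNAs from RefSeq. Counts were normalized with TMM and tested with edgeR 4.0.16 (filterByExpr, glmQLFit, glmQLFTest, prior count 0.125; R 4.3.3) with genotype as the factor and Benjamini-Hochberg adjustment over 14746 genes; DESeq2 1.42.0 was an alternative. Permutation tests used scipy 1.17.1. The steps were checked on simulated counts. Depth was 37288174 to 51136331 counts per library; intervals on single counts cover counting error only. The paper calls the controls of this comparison wild type littermates, but nothing states which libraries shared a litter or a preparation day.

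Genes were named by a rule: the 6 factors, the 5 genes most like Zeb2 and 2 for each other tested factor, the 3 of highest mean CPM in each list, Cdh1, Cdh2, Vim, Ctbp1, Ctbp2, Tcf3, Tcf12 and overlapping genes; exceptions are marked in the text. Not all are printed, and 2 listed genes enter counts and sums but are not reported here by name. Alternatives covered normalization, the low-count filter, DESeq2, robust dispersions, mitochondrially encoded genes, the replicate number as a block, exon length and leaving out each library.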

Additional observations from a re-analysis of the deposited data

How the results depend on the processing

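No member was called under any alternative. The replicate numbers of the labels join different mice, and deviations of same-numbered libraries correlated at 0.088, -0.14 and -0.087. These values show no pairs. They cannot exclude a shared litter or preparation day, because WT replicate 2 stood apart and may dominate the WT deviations. With the replicate number as a block, Zeb2 had a log2 fold change of -0.28, Snai2 of -0.39 and Twist1 of -0.47. In that fit 0 members were called, and 100 genes lower and 147 higher had an unadjusted p under 0.05 (edgeR). The fit without the block had 127 and 153. The sign of Zeb1 turned without the filter on low counts (0.0060) and without WT replicate 2 or Zeb2 cKO replicate 2.

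Leaving out each library in turn, log2 fold changes ran from -0.50 to -0.0058 for Zeb2, -0.089 to 0.053 for Zeb1, -0.56 to 0.17 for Snai1, -0.89 to 0.15 for Snai2 and -0.95 to 0.12 for Twist1, each upper end but that of Zeb1 without WT replicate 2. Zeb2 relative to macrophage, fibroblast and endothelial markers ran from -0.071 to 0.48, -0.14 to 0.52 and -0.67 to -0.02, and the log2 ratio of Twist2 to Twist1 from -0.25 to 0.34. Correlations with Zeb2 ran from -0.0053 to 0.64 for Zeb1, 0.53 to 0.93 for Snai1, 0.44 to 0.97 for Snai2, 0.69 to 0.99 for Twist1 and 0.78 to 0.99 for Twist2, and without the 2 libraries farthest from the median of Zeb2 they were -0.0099, 0.60, 0.42, 0.45 and 0.68. Ratios of levels between neighbours kept their sign, at 2.01 to 2.19 (Zeb2 over Snai2), 0.74 to 0.82 (Snai2 over Twist1), 0.37 to 0.54 (Twist1 over Snai1) and 2.08 to 2.34 (Snai1 over Twist2) on the log2 scale, but with 5 libraries no exact test can go below p = 0.0625, and none passed. Dividing by the longest transcript gave 3.20 for Zeb2 over Snai2 and 1.88 for Snai1 over Twist2, outside the ranges from leaving out libraries. Counts of 7 to 45 limit Twist2 and Snai1.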
